A study of Mus musculus with 4 samples.

Results

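The genes described here are 10 immediate early genes of the AP-1 and Egr group, chosen by name: Fos, Fosb, Jun, Junb, Jund, Egr1, Egr3, Ier2, Dusp1 and Atf3. They are 10 of the 46517 genes in the deposited expression table, and each name matched 1 row. RNA was sequenced from LSK cells, which are Lin(-) Sca-1(+) c-Kit(+) blood progenitors that include the haematopoietic stem cells, of C57BL/6 mice aged 8 to 10 weeks. Cells of genotype Setd2f/f, with functional Setd2, gave 2 libraries, and cells of genotype Setd2D/D, with Setd2 knocked out, gave 2. Setd2 encodes the enzyme that trimethylates lysine 36 of histone H3, and the study's title asks how it bears on stem cell quiescence and differentiation through RNA polymerase II elongation. The Cre that deleted the allele, any pooling of mice and the length of the sort are not stated in the labels.

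Immediate early genes are transcribed within minutes of a signal, from promoters at which the factors already sit, without new protein synthesis. Growth factors, stress and the physical dissociation of a tissue all reach them through MAP kinases, the serum response factor with its Elk partners, and CREB-type factors. Fos and Jun proteins pair into the dimeric factor AP-1, Egr proteins are zinc finger factors, Dusp1 is a phosphatase that switches MAP kinases off, and Atf3 is a stress-induced bZIP factor. Their messages are short-lived, partly through AU-rich elements in the 3' untranslated region that proteins such as Zfp36 bind. For these reasons they are often read, in sorted cells, as a sign of stress during preparation.

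The promoters are shown because they are the route by which such signals arrive. RefSeq promoter windows (build GRCm38.p6) were read for 7 of the 10 genes, matched by symbol. These were Fos, Fosb, Jun, Junb, Jund, Dusp1 and Atf3, so nothing is said here of Egr1, Egr3 and Ier2. In the 250 bases before the RefSeq start, the cAMP response half-site TGACG, searched on both strands, occurred in 5 of the 7 (Fos, Fosb, Junb, Dusp1 and Atf3), against 17.8% of 32851 windows of that length. The 8-letter form TGACNTCA, read as an AP-1 or cAMP response site, occurred in Jun and Dusp1, against 7.49% of windows. It was also searched on both strands and can overlap the half-site. The letters TATAAA on the gene's strand were in 1 of the 7, Fos, against 7.59%. Neither the shorter AP-1 form TGANTCA (6.75% of windows) nor the CArG box of serum response factor (1.47%) was found in any of the 7. That says only that those letters are not in these windows. Below, capitals mark these matches. For Dusp1 the bases that the annotation places in an exon are left out, and that run ends 48 bases before the RefSeq start.
Fos (chr12:85473640-85473889, plus strand): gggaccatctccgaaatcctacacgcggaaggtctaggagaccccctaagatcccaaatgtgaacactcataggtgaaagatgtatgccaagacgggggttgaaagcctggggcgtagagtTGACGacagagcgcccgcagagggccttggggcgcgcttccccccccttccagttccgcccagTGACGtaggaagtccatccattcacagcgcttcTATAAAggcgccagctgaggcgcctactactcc
Jun (chr4:95052223-95052472, minus strand): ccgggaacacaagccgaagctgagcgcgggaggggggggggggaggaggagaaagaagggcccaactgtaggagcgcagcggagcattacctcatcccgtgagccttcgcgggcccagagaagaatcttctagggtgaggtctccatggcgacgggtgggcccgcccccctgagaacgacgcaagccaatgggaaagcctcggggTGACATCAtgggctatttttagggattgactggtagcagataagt
Junb (chr8:84978749-84978998, minus strand): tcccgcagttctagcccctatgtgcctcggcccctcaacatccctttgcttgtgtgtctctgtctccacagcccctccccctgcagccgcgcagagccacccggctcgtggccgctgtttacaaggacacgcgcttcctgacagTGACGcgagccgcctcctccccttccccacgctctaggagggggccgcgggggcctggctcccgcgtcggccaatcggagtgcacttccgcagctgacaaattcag
Dusp1 (chr17:26508520-26508722, minus strand): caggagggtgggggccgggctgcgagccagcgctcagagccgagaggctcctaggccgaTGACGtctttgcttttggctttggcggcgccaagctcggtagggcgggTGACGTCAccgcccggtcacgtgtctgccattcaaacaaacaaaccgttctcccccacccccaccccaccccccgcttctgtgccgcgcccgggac
In Fos the half-site copies began 129 and 66 bases before the start and the TATA letters began 33 bases before it. In Jun the 8-letter site began 45 bases before the start, and in Junb the half-site began 106 bases before it. Dusp1 held 1 half-site 191 bases before its start and the full palindrome 143 bases before it.

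The AU-rich stretches are shown because they bear on how fast a message is lost. In the longest annotated coding transcript of each gene (GENCODE M21, GRCm38), the heptamer TATTTAT, searched on the RNA strand, lay in the 3' untranslated region of 6 of the 10 genes, against 29.5% of 11795 tested coding genes. For 2 of the 10, Fos with 2 copies and Dusp1 with 3, it occurred more than once, against 10.3% of those genes. The pentamer ATTTA, which the heptamer contains, had a median density of 2.59 per kb in the 10 genes and 1.30 per kb in the tested coding genes, with 8 of the 10 above that value. Ier2 held 0 pentamers in 755 bases. One site of 30 bases is given for each of Fos, Dusp1 and Jun, with the pentamers in capitals.
Fos (chr12:85477098-85477127, plus strand): tattgtgttttcaATTTATTTAttaagatg
Dusp1 (chr17:26506159-26506188, minus strand): ggagctggtccttATTTATTTAacaccccc
Jun (chr4:95049081-95049110, minus strand): cctttgcttgtgcatATTTAtaatagcgtt
The 10 genes were also compact, with a median annotated span of 4.70 kb against 23.4 kb for the 12077 protein-coding genes tested, and a median of 3 exons in the transcript with the most exons against 9. Jun, Junb, Jund and Ier2 each had 1 exon. Dusp1 (56.5 kb) and Atf3 (47.7 kb) were the long exceptions, as annotated. For both, the window before the RefSeq start lies inside the annotated span, so that span reaches upstream of the RefSeq start.

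Levels are TPM, the length-normalised share of transcripts in a library, and each library sums to the same total. The 10 genes together held 81.70 and 87.53 TPM in Setd2f/f, against 78.90 and 76.52 TPM in Setd2D/D. The order of these sums was not stable. With libraries rescaled by trimmed means of M values, chosen for the sum after seeing the data, they were 78.77 and 87.43 against 79.50 and 78.85 TPM, which overlap. With Gm11175, an antisense model that overlaps Jund, added to them, also chosen after seeing the data, they were 81.70 and 88.74 against 78.90 and 93.33 TPM. In bulk RNA, fewer expressing cells and less RNA per cell cannot be told apart. Most of the 10 were low among the genes of these cells: the median mean TPM over the 14755 genes that passed the filter on low values was 19.3, and 9 of the 10 genes lay under it, with Ier2 above.

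**Figure D1:**
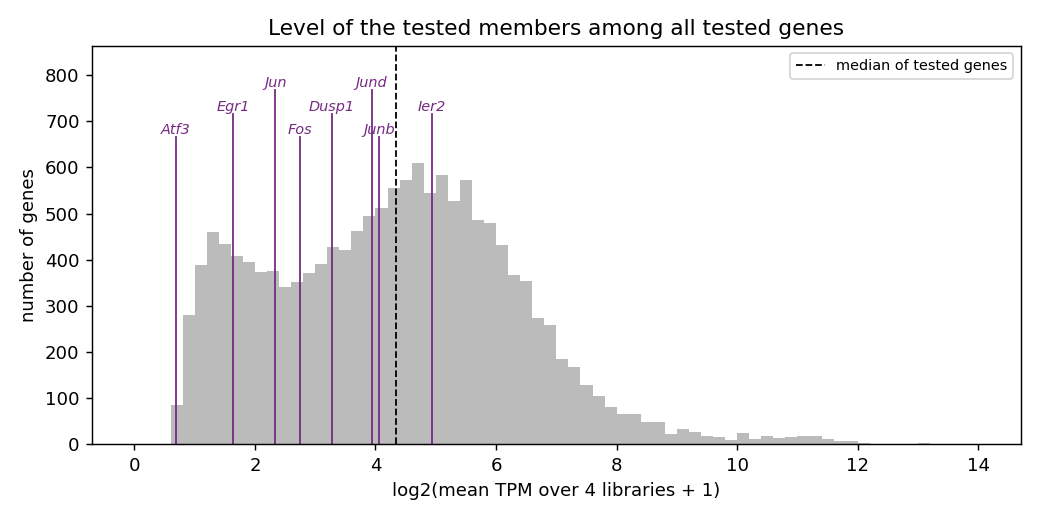
Histogram of log2(mean TPM + 1) over the 4 libraries for the 14755 tested genes (y axis, number of genes), with the 8 tested immediate early genes as vertical lines and the median as a dashed line. Ier2 is right of the median, and the other 7 are left of it.

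The libraries differed in depth and likeness. By the worth of 1 read at low values, Setd2D/D replicate 1 had a relative depth of 0.622 where Setd2f/f replicate 2 is set to 1, the other libraries were at 0.844 and 0.923, and absolute depth is not in the table. Replicates correlated across genes at r = 0.959 for Setd2f/f and 0.912 for Setd2D/D. Setd2D/D replicate 2 correlated with the Setd2f/f libraries at 0.934 and 0.942, more closely than with the other Setd2D/D library. For Setd2D/D replicate 1 against the Setd2f/f libraries, r was 0.91 and 0.913. By this measure the Setd2D/D libraries did not group apart from Setd2f/f. Setd2 itself was at 78.91 and 68.00 TPM in Setd2f/f against 43.40 and 49.54 TPM in Setd2D/D, lower in both knockout libraries, although a transcript missing just the deleted exons would also count here. All 6 markers of the gate and of early progenitors were detected, with Kit at 224 to 301 TPM, while Ly6a, which encodes Sca-1, was at 127.50 and 123.78 TPM in Setd2f/f versus 46.52 and 80.59 TPM in Setd2D/D. The summed levels of 5 erythroid markers were 88.80 and 140.18 TPM in Setd2f/f compared with 396.21 and 385.98 TPM in Setd2D/D. Those of 4 B cell markers were 228.47 and 138.34 TPM against 82.06 and 110.66 TPM, and those of 5 macrophage markers 50.89 and 53.22 TPM against 96.61 and 75.86 TPM. The macrophage difference was that of Cd68, at 26.11 and 33.67 against 77.12 and 57.28 TPM: without it the other 4 summed to 24.78 and 19.55 against 19.49 and 18.58 TPM, and C1qa and C1qb were lower in both Setd2D/D libraries. The sum of 7 granulocyte and monocyte markers ran from 763.98 to 876.17 TPM in Setd2f/f and from 536.27 to 1154.11 TPM in Setd2D/D. It was carried by S100a8, S100a9 and Ly6c2, with Cd14 at 0.57 TPM or less. Ly6c2 was higher in both Setd2D/D libraries, at 89.61 and 90.11 TPM in Setd2f/f against 132.64 and 180.53 TPM. Itgam was lower in both, and the groups of the other markers overlapped. The sum of 5 T and NK cell markers ran from 129.96 to 130.62 TPM and from 78.76 to 120.99 TPM, most of it Nkg7. Cd3e was at 0.57 TPM or less, and Cd4 was at 14.61 and 4.15 TPM in Setd2f/f against 0 and 2.29 TPM in Setd2D/D. The sums of 3 megakaryocyte markers were 60.70 and 50.68 against 62.56 and 76.23 TPM, but the markers differed in direction. Pf4 was at 13.31 and 11.22 TPM in Setd2f/f against 36.72 and 43.16 TPM in Setd2D/D. Itga2b was lower, at 46.19 and 38.99 against 25.84 and 31.87 TPM, and Gp1bb was at 1.20 TPM or less. The sums of 5 stromal and endothelial markers were 124.73 and 97.78 against 90.53 and 83.58 TPM, with Col1a1 at 0.20 TPM or less. Among them Emcn was at 42.85 and 24.33 against 5.68 and 11.70 TPM, while the Pecam1 groups overlapped. The part of these cell types in the values below was not tested.

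None of the 10 genes passed either test between the genotypes. With limma on log2(TPM + 1), 8 of the 10 passed the filter and 0 passed an adjusted p (Benjamini-Hochberg over all tested genes) of 0.05, where 0.0678% of all tested genes did (10 genes). By unadjusted p under 0.05 the count was also 0 of 8, against 11.2% of all tested genes. The authors' deposited table lists 9 of the 10, and 0 passed its FDR of 0.05, against 3.15% of its 23955 genes. The 2 libraries of 1 genotype lay wholly on one side of the other 2 for 4 of the 8 against 44.3% of all tested genes. Of the 4, 2 were higher in Setd2D/D (16.8% of all tested genes) and 2 lower (27.6%). Atf3, 1 of the 2 higher, passed the filter only through the Setd2D/D libraries, so its direction was built in. With 8 genes, these shares lie near the background. Nothing in the labels says that the replicates are separate mice, so the p-values reflect library-to-library spread that may be only technical. An exact permutation test on 2 against 2 cannot go below p = 0.333.

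**Figure D2:**
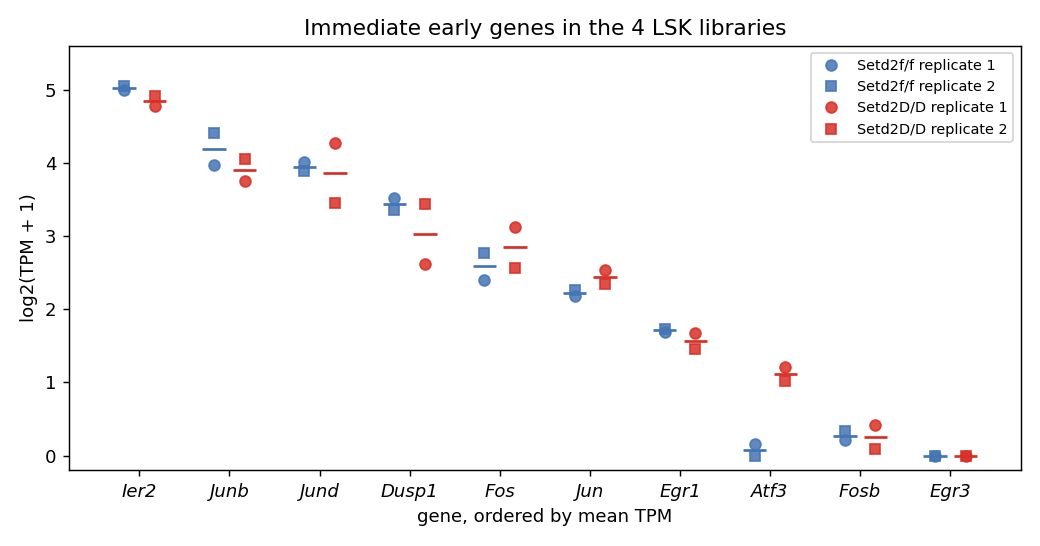
Level of each of the 10 genes as log2(TPM + 1) (y axis), ordered by mean TPM (x axis). Each point is 1 library and each bar the mean of the 2 libraries of a genotype. The order runs from Ier2, at a mean of 29.7 TPM, to Egr3, at 0 in all 4 libraries, and the widest gap between genotypes on this scale is at Atf3.

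The Fos genes were weakly expressed. Fos (ENSMUSG00000021250, chromosome 12, 85473890 to 85477273, plus strand), the partner that cannot bind DNA without a Jun protein, was at 4.30 and 5.81 TPM in Setd2f/f against 7.76 and 4.91 TPM in Setd2D/D. The highest value was in Setd2D/D replicate 1, and the other Setd2D/D library lay between the Setd2f/f libraries, so the groups overlapped. The limma log2 change was 0.26 (SE 0.34, 95% interval -0.64 to 1.16, adjusted p = 0.815). Without Setd2D/D replicate 1 it was -0.02. Fosb (chromosome 7, 19302696 to 19310051), its close relative, was at 0.16 and 0.26 TPM in Setd2f/f against 0.34 and 0.06 TPM in Setd2D/D, and it did not pass the filter. Both extremes of Fosb were in Setd2D/D.

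The 3 Jun genes together were more abundant than Fos and Fosb together. Junb, a Jun protein known to restrain proliferation of myeloid progenitors (chromosome 8, 84974484 to 84978718), was at 14.67 and 20.19 TPM in Setd2f/f compared with 12.44 and 15.62 TPM in Setd2D/D. The groups overlapped, with the lowest value in Setd2D/D replicate 1 and the highest in Setd2f/f replicate 2. The limma log2 change of Junb was -0.29 (SE 0.25, 95% interval -0.94 to 0.37, adjusted p = 0.701). Junb overlaps Prdx2, a peroxiredoxin gene on the opposite strand at 354 to 483 TPM, and the labels do not say whether reads were assigned by strand, so reads of Junb and of its far more abundant neighbour may not be separable.

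Jund, the Jun protein that is less dependent on stimulation (chromosome 8, 70698949 to 70700616), was at 15.17 and 13.76 TPM in Setd2f/f against 18.38 and 9.98 TPM in Setd2D/D. The Setd2D/D libraries lay on either side of both Setd2f/f libraries, and the limma log2 change was -0.08 (SE 0.33, 95% interval -0.94 to 0.78, adjusted p = 0.951). The antisense model Gm11175 overlaps Jund and was listed at 0 in replicate 1 of either genotype, at 1.21 TPM in Setd2f/f replicate 2 and at 16.81 TPM in Setd2D/D replicate 2. The library with the most Gm11175, Setd2D/D replicate 2, was the one with the least Jund. Summed, Jund and Gm11175 were at 15.17 and 14.97 TPM in Setd2f/f versus 18.38 and 26.79 TPM in Setd2D/D. Reads of this pair may not be separable without strand, and how far their exons overlap was not measured. TPM is scaled by the length of each model, so the sum of the pair is not a recount of reads.

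Jun (chromosome 4, 95049034 to 95052222), the founding member of the family and the strongest activator among the Jun proteins, was at 3.55 and 3.82 TPM in Setd2f/f compared with 4.78 and 4.07 TPM in Setd2D/D. Both Setd2D/D libraries were above both Setd2f/f libraries, by a ratio of means of 1.20. The limma log2 change of Jun was 0.21 (SE 0.30, 95% interval -0.57 to 0.99, adjusted p = 0.832). Its antisense RNA Junos did not exceed 0.730 TPM in any library.

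The 3 Jun genes summed to 33.39 and 37.77 TPM in Setd2f/f against 35.60 and 29.67 TPM in Setd2D/D. Fos and Fosb together reached 4.46 and 6.07 TPM in Setd2f/f versus 8.10 and 4.97 TPM in Setd2D/D. The Jun sum was above the Fos sum in all 4 libraries.

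Of the Egr genes, Egr1 was detected and Egr3 was listed at 0 in all 4 libraries. Egr1 (chromosome 18, 34859823 to 34864984), a zinc finger factor reported to hold haematopoietic stem cells in quiescence and in their niche, was at 2.24 and 2.31 TPM in Setd2f/f compared with 2.21 and 1.74 TPM in Setd2D/D. Both Setd2D/D libraries were lower, one of them narrowly, and the limma log2 change was -0.14 (SE 0.35, 95% interval -1.06 to 0.78, adjusted p = 0.909). Egr2 was at 0.12 TPM in Setd2f/f replicate 1 and listed at 0 in the other 3 libraries, and Egr4 was listed at 0 in all 4. The co-repressors that bind Egr proteins were well above them, with Nab1 at 25.22 to 46.43 TPM and Nab2 at 11.96 to 23.11 TPM.

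Ier2 and Dusp1 respond to the same signals. Ier2 (chromosome 8, 84661331 to 84662852), a small nuclear protein gene, was the most abundant of the 10, at 31.04 and 32.12 TPM in Setd2f/f against 26.51 and 29.29 TPM in Setd2D/D. The Setd2D/D libraries were both lower, and the limma log2 change of Ier2 was -0.17 (SE 0.15, 95% interval -0.57 to 0.22, adjusted p = 0.699). That interval is the narrowest of the 8. Dusp1 (chromosome 17, 26505590 to 26562128) was at 10.45 and 9.26 TPM in Setd2f/f versus 5.17 and 9.83 TPM in Setd2D/D. Only Setd2D/D replicate 1 was low, the other lay between the Setd2f/f libraries, and the limma log2 change was -0.41 (SE 0.35, 95% interval -1.33 to 0.52, adjusted p = 0.697). Without Setd2D/D replicate 1 the change was -0.0012, and without Setd2D/D replicate 2 it was -0.81. Over its annotated span, which reaches upstream of the RefSeq start, Dusp1 overlaps Ergic1, which lies on the opposite strand at 75.0 to 103 TPM.

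Atf3 (chromosome 1, 191170296 to 191218039) was the member whose genotypes stood farthest apart, at a level of about 1 TPM or less. It was at 0.12 TPM in Setd2f/f replicate 1, listed at 0 in Setd2f/f replicate 2, and at 1.31 and 1.02 TPM in Setd2D/D. Both Setd2D/D libraries were above both Setd2f/f libraries, but the gene passed the filter only through the Setd2D/D libraries, so that a difference in that direction was built in. The limma log2 change of Atf3 was 1.03 (SE 0.44, 95% interval -0.13 to 2.19, unadjusted p = 0.0705, adjusted p = 0.479). In the authors' deposited table Atf3 has a mean log2 CPM of -0.84 and changes by 3.67 on the log2 scale (FDR 0.686).

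Ordered by level, neighbours in the list often could not be separated. Ier2 was above Junb in every library and the ranges of the 2 genes did not meet. The ranges over the 4 libraries met between Junb and Jund, Jund and Dusp1, Dusp1 and Fos, and Fos and Jun. Within each library, though, Jund was above Dusp1, in Setd2D/D replicate 2 narrowly, and Fos above Jun, whereas Junb and Jund, and Dusp1 and Fos, changed order between libraries. Jun lay above Egr1 and Egr1 above Atf3 in every library, while Atf3 and Fosb changed order between libraries. By percentile of mean TPM among the 14755 tested genes, Ier2 stood at 61.7, Junb at 44.8, Jund at 42.8, Dusp1 at 32.6, Fos at 25.7, Jun at 20.8 and Egr1 at 11.8.

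The genes did not move as a block. Of the 9 with any signal, Setd2D/D replicate 1 held the highest value for 5 (Fos, Fosb, Jun, Jund and Atf3) and the lowest for 3 (Junb, Ier2 and Dusp1). Among all tested genes these shares were 28.6% and 33.3%. An extreme of either kind lay there for 8 of 9, against 61.9% of all tested genes. The 9 include Fosb, which was not tested, and Atf3, which passed the filter only through Setd2D/D. Setd2D/D replicate 1 was also the shallowest library. Its part in these values was not tested. Of the 8 tested members, 3 had a log2 change above 0, among them Atf3, whose direction the filter built in, and 5 below. Their median was -0.113, beside a median of -0.063 over all tested genes. The members' median was 0.137 without Setd2D/D replicate 2.

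**Figure D3:**
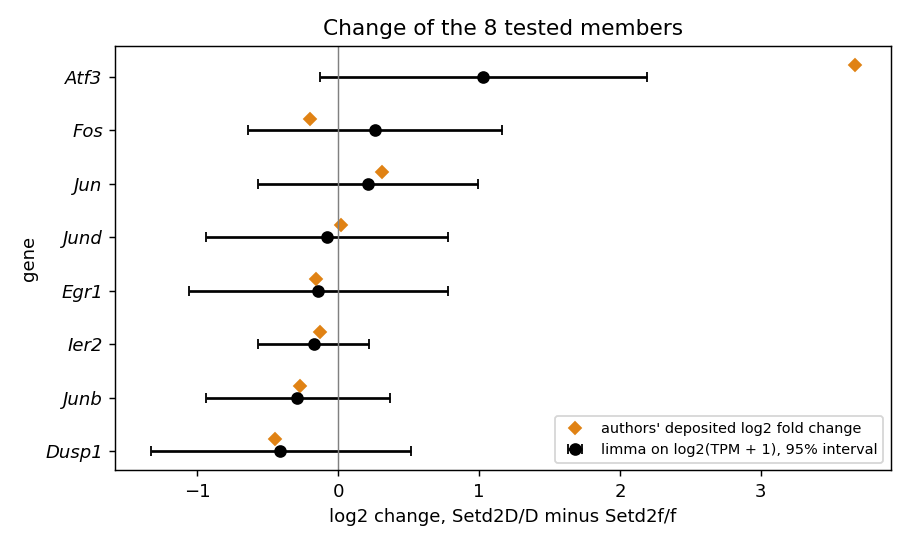
Change of the 8 tested genes (y axis) as log2, Setd2D/D minus Setd2f/f (x axis). Black points are limma values with 95% intervals, and diamonds are the authors' deposited values. Every interval includes 0, from Dusp1 at -0.41 to Atf3 at 1.03.

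For Fos and Jund the sign differed between the 2 kinds of value. The authors' deposited table gives Fos a log2 change of -0.20 (FDR 0.950) and Jund one of 0.02 (FDR 0.990), where limma on the TPM gave 0.26 and -0.08. Among all genes in both analyses the signs were opposite for 13.8%. For the other members the authors' deposited table gives Jun 0.31, Junb -0.27, Egr1 -0.16, Ier2 -0.13, Dusp1 -0.45 and Fosb -0.07, with an FDR of at least 0.798 for each.

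The wider immediate early programme was read from lists of related genes. Of 46 other early response genes, 37 were tested and 0 passed limma over all genes in either direction, while 6 had an unadjusted p under 0.05 (2 higher and 4 lower in Setd2D/D, where 4.17% of all tested genes were higher and 6.99% lower at that p). Their median log2 change was -0.085. The authors' deposited table lists 43 of them. Past its FDR of 0.05, Cited2 was higher and 3 were lower (Dusp2, Ier5 and Zfp36l2), where 3.15% of all its genes passed in either direction. Zfp36l2, an RNA-binding protein that shortens the life of AU-rich messages, was at 549.74 and 531.33 TPM in Setd2f/f compared with 397.41 and 392.11 TPM in Setd2D/D (limma log2 change -0.45, SE 0.08, adjusted p = 0.274; authors' deposited FDR 0.0366). Zfp36l2 was named for its small p-value, so the distance between its groups is no separate result. Its level was above that of every one of the 10 genes.

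Dusp2, a nuclear phosphatase of MAP kinases, was at 69.41 and 53.95 TPM in Setd2f/f against 37.72 and 42.26 TPM in Setd2D/D (limma log2 change -0.60, adjusted p = 0.396). Cited2, a co-regulator needed for stem cell maintenance, was at 49.89 and 45.12 TPM in Setd2f/f versus 68.92 and 61.84 TPM in Setd2D/D (limma log2 change 0.45, adjusted p = 0.397). Neither gene's groups overlapped, but both genes were also named for small p-values. Of the 37 tested early response genes, 22 had groups that did not overlap (59.5%), against 44.3% of all tested genes. Ier5, named after its values were seen because it is 1 of the 4 in the authors' deposited table, was at 12.55 and 9.50 TPM in Setd2f/f compared with 2.49 and 6.67 TPM in Setd2D/D, and that table has it at -1.20 on the log2 scale (FDR 0.00250).

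The 22 genes of the signal route to the serum response element were all tested, and 0 passed limma over all genes, with 3 at an unadjusted p under 0.05, all lower, a direction in which 6.99% of all tested genes had such a p. Of these 22, 18 had a change below 0, as had 57.9% of all tested genes, and the median was -0.194, beside -0.063 for all tested genes. Rps6ka4, a kinase of CREB and histone H3, was at 12.52 and 14.69 TPM in Setd2f/f against 7.07 and 8.33 TPM in Setd2D/D (limma log2 change -0.75, adjusted p = 0.411). Mkl1, an actin-regulated partner of serum response factor, was at 50.34 and 45.13 TPM in Setd2f/f versus 30.93 and 36.44 TPM in Setd2D/D (limma log2 change -0.49, adjusted p = 0.412). For Map2k2, the kinase above ERK, limma gave a log2 change of -0.31 (adjusted p = 0.423) while the authors' deposited table has it at 0.00. The FDR of that table was passed by 0 of the 22.

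The list called other AP-1 partners holds 17 bZIP genes, of which Atf1, Creb1 and Crem are CREB-type factors. Of the 17, 14 were tested and 0 passed limma, also at an unadjusted p under 0.05, with a median log2 change of -0.176. The authors' deposited table lists 16, of which 0 passed. Jdp2, a repressing partner of Jun, was at 16.35 and 16.99 TPM in Setd2f/f compared with 7.56 and 12.53 TPM in Setd2D/D (limma adjusted p = 0.464). The small Maf genes Mafg, at a mean of 42.3 ± 2.33 and 34.3 ± 0.672 TPM (SD, n = 2 libraries), and Mafk, at 31.3 ± 0.905 and 26.5 ± 1.36 TPM, were lower in both Setd2D/D libraries without passing (limma adjusted p = 0.499 and 0.602). Of 11 feedback regulators, 10 were tested and 0 passed limma, also at an unadjusted p under 0.05. The authors' deposited table places 1 of 11 past its FDR, against 3.15% of all its genes. Spred1, an inhibitor of Ras signalling, is that gene (log2 change -0.51, FDR 0.0189 in that table). It was at 20.13 and 17.56 TPM in Setd2f/f against 10.79 and 15.00 TPM in Setd2D/D. Dusp10 was at 3.71 and 2.15 TPM in Setd2f/f versus 1.16 and 1.07 TPM in Setd2D/D, and Spry1 at 4.19 and 4.44 TPM and 5.61 and 5.79 TPM, with limma adjusted p = 0.493 and 0.681.

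Heat shock genes, the other group read for dissociation stress, gave 0 of 13 tested past limma over all genes. At an unadjusted p under 0.05 the count was 1 of 13, Hspa1b, against 11.2% of all tested genes. Hspa1b, an inducible HSP70 gene, was at 2.95 and 2.27 TPM in Setd2f/f compared with 8.01 and 8.65 TPM in Setd2D/D (limma log2 change 1.38, SE 0.29, adjusted p = 0.302), and the authors' deposited table has it at 1.73 on the log2 scale (FDR 0.00367). Hspa1a is a near-identical copy, so the split between them is uncertain. Summed, the pair was at 4.33 and 2.63 TPM in Setd2f/f against 8.01 and 10.76 TPM in Setd2D/D, higher in both knockout libraries. The constitutive chaperones were far more abundant, with Hspa8 at 2688 to 4498 TPM, Hsp90ab1 at 2382 ± 75.2 and 2624 ± 101 TPM, and Hspe1 at 222 ± 3.91 and 246 ± 9.47 TPM (SD, n = 2 libraries), and Hsp90ab1 and Hspe1 did not pass limma (adjusted p = 0.588 and 0.584). No library of cells taken without dissociation was analysed, so how much of any level arose during preparation was not tested.

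**Figure D4:**
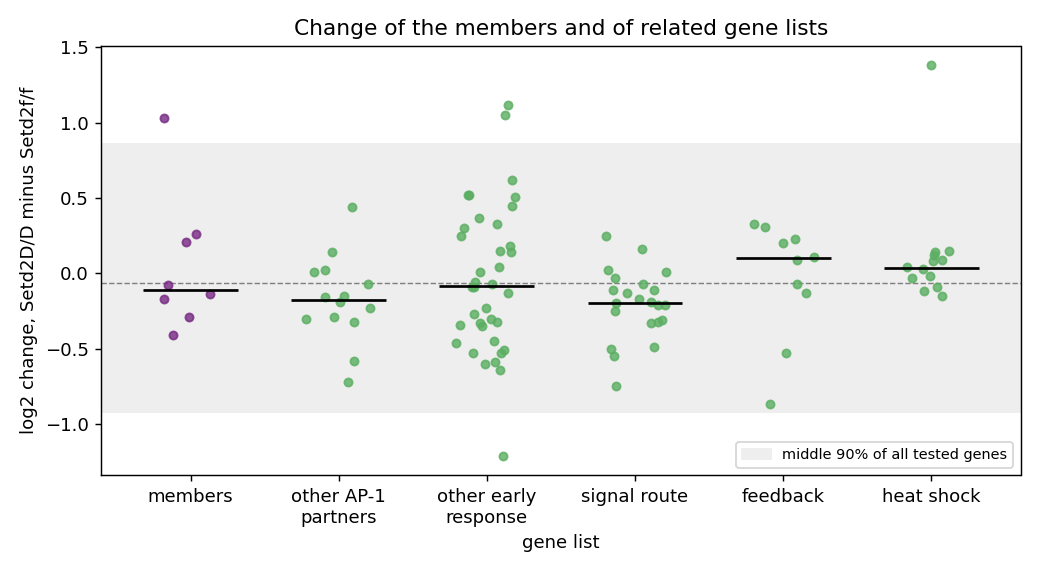
Log2 change, Setd2D/D minus Setd2f/f (y axis), of each tested gene in the 10-gene set and in the 5 related lists (x axis). Horizontal bars are list medians, the dashed line is the median of all tested genes and the grey band holds the middle 90% of them, from -0.92 to 0.86. The list medians lie between -0.194 and 0.099.

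The mean profile of the 8 tested members, in log2(TPM + 1) centred per gene, was nearly flat, at -0.057 and 0.006 in Setd2f/f and 0.072 and -0.021 in Setd2D/D. By Euclidean distance over the 4 libraries the nearest of 9945 other genes were Alg5 (0.023), Unc119 (0.027), Cnppd1 (0.029), B3galnt2 (0.029) and Polr3e (0.031), and 257 genes lay within 0.1. The mean is taken over genes that changed in opposite directions, which flattens it, so nearness to it describes the mean and no single member. Atf3, with the largest change of the 8 (1.03), weighs on its shape and passed the filter only through the Setd2D/D libraries. The profile and the nearest genes without Atf3 were not computed.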

How the data were processed

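Messenger RNA of LSK cells was measured in 4 libraries, 2 per genotype, grouped by their titles. The authors deposited TPM values per gene. cutadapt, RSEM, edgeR and build mm10 are named without versions or roles, per the submitters' processing notes. The authors' deposited comparison table holds, per the file headers, the p-value and FDR of each gene, the F score behind them, the fold change as a ratio and as log2, and a mean log2 CPM. Gene names split by a comma were rejoined in 5 rows of the first table and 2 of the second.

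TPM keeps no counts, so log2(TPM + 1) was tested with limma 3.58.1 in R 4.3.3, with genotype as the term, a variance trend, 2-sided tests and Benjamini-Hochberg adjustment, over the 14755 genes that reached 1 TPM in 2 or more libraries. Fold changes on this scale understate those of low genes. The script was tested on simulated data. Positions are from GENCODE M21 on GRCm38, the assembly of mm10, to which 46005 gene IDs matched. Promoters are from RefSeq, and motif searches covered the bases before the start.

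The members and lists were chosen with earlier results of these data known. Genes named were the 10 members, the 3 smallest p-values of each related list at a mean TPM of at least 1, Setd2, and the 5 genes nearest in profile. Ier5, Egr2, Egr4, Nab1, Nab2, Hspa1a, Hspa8, the overlapping genes and the single markers were named after their values were seen. Alternatives were pseudocounts, filters, 3 scalings, variance models, the replicate number as a block, and leaving out each library.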

Additional observations from a re-analysis of the deposited data

How the results depend on the processing

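Under all 14 alternatives 0 of the tested members passed an adjusted p of 0.05 by limma, and the lowest adjusted p of any member was 0.227, for Atf3. Of 109 single-member values, 107 kept their direction, though not always their size. Without replicate 1 or 2 of Setd2D/D, Dusp1 was at -0.0012 or -0.81, and leaving out 1 library in turn put Junb between -0.50 and -0.07 and Egr1 between -0.26 and -0.03. Atf3 was at 3.08 with pseudocount 0.1 and 1.57 with 0.5. The log2 change of the members' summed level, -0.122 as deposited, was -0.068 with trimmed means of M values, -0.063 with median-of-ratios factors and 0.011 with Gm11175 counted, all chosen after seeing the data. The exceptions in direction were Fos, between -0.02 and 0.54, and Jund, between -0.49 and 0.33, without replicate 1 or 2 of Setd2D/D (Fos at -0.02 without the first, Jund at 0.33 without the second). Leaving out 1 library moved the members' median between -0.098 and 0.137, that of the other AP-1 partners between -0.305 and -0.124, of the feedback genes between -0.092 and 0.131, and of the heat shock genes between -0.069 and 0.179. The heat shock median was 0.091 with trimmed means of M values, 0.096 with median-of-ratios factors and 0.086 with quantile normalization. With no filter, Fosb had a log2 change of -0.02 (limma adjusted p = 0.977).

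Over all genes, limma's 10 calls became 3 at pseudocount 0.1, 0 with no filter, 19 without the abundance trend, 0 with the replicate block and 0 without any 1 library, where the lone library was assumed to vary like the other pair. The cause was not tested. The labels do not say whether same-numbered libraries share more than a number, and a shared preparation was not tested. Deviations of same-numbered libraries correlated at 0.041 across genes, and the block brought 0 members past the threshold. Depth limits Atf3 and Fosb most, at a mean log2 CPM of -0.84 and -0.87 in the authors' deposited table.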
